A study of Mus musculus with 4 samples.

Results

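The 38 genes of cholesterol and fatty acid synthesis described here were taken by symbol from a count table of 24084 gene rows. They comprise 17 enzymes of sterol synthesis, 4 regulators of that pathway, 13 genes of fatty acid synthesis and 4 genes of lipid storage. All 38 were in the table, and all 38 were among the 12920 genes with enough counts to be tested. They were measured by RNA sequencing in 4 libraries of mouse hair follicle stem cells, sorted from the epidermis of C57BL/6 mice that were 7 to 10 weeks old. All libraries were made 4 days after dorsal hair had been removed by depilation, and every mouse had been given diphtheria toxin intraperitoneally at 15 ng per g of body weight. In the 2 Foxp3-DTR libraries (C and D) the mice carried a diphtheria toxin receptor under Foxp3, the transcription factor that defines regulatory T cells, and the labels give these cells as depleted. In the 2 WT libraries (A and C) the mice lacked the receptor and had regulatory T cells. The study compared the stem cells with and without those T cells. No source used here says that libraries of 1 group came from separate animals, so the spread between them may be technical.

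Cells make cholesterol from acetyl-CoA through mevalonate, isoprenoid units, squalene and lanosterol, and make fatty acids by carboxylating acetyl-CoA, joining the units into palmitate, then elongating and desaturating it. Transcription of both pathways is controlled by the SREBP factors, which are held in the endoplasmic reticulum with SCAP by INSIG when sterol is plentiful and are released to the nucleus when it is low. In skin these pathways supply the barrier lipids of the upper epidermis and the sebum of the sebaceous gland, while the bulge of the follicle, from which hair follicle stem cells are sorted, is a niche of slowly cycling cells.

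Start regions of the genes are described here by their sequence. All 17 sterol enzymes were higher in WT A than in WT C, and any link of that to sequence was not tested. RefSeq windows of 250 bases before a transcription start (GRCm38.p6, the mm10 assembly) were held for 29 of the 38 genes. None was held for Fdps, Fdft1, Sqle, Scd1, Scd2, Elovl3, Fads1, Dgat1 or Dgat2. The windows were searched on both strands for a CCAAT box (CCAAT, which NF-Y binds), a sterol regulatory element (TCACNCCAC), an E-box (CACGTG) and a GC box (GGGCGG); overlapping matches were counted. A CCAAT box was found in the windows of 14 of 14 sterol enzymes with a window, of 3 of 4 regulators, of 3 of 9 fatty acid genes and of 2 of 2 storage genes. Of all genes with windows 37.5% held it, and of the tested genes 40.4%. The sterol regulatory element was found in 1 of 14 sterol enzymes, Hmgcs1, against 1.30% of tested genes. The GC box was in 13 of 14 sterol enzymes, against 64.9% of tested genes, and the E-box in 3 of 14, against 10.1%. A match describes letters in the window and is not a shown binding site.

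The 5 windows below belong to genes that the results turn on and hold no annotated exon. Hmgcs1 lies at chr13:119690101-119690350 on the plus strand, Mvd at chr8:122443423-122443672 on the minus strand and Ebp at chrX:8193513-8193762 on the minus strand. Fasn lies at chr11:120824548-120824797 and Elovl4 at chr9:83806306-83806555, both on the minus strand. Each is written 5′ to 3′ on the gene's strand. Capitals mark CCAAT boxes on either strand and, in Hmgcs1, also the sterol regulatory element, which begins at position -137 from the start; in Fasn a pair of CCAAT matches overlaps. Elovl4 held neither of these motifs, and it too was higher in WT A (505 CPM) than in WT C (15.6 CPM).
Hmgcs1: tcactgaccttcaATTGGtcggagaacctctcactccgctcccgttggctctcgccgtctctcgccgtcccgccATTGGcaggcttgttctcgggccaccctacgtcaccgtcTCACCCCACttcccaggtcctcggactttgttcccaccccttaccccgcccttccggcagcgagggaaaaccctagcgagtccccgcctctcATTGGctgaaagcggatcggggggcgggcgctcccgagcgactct
Mvd: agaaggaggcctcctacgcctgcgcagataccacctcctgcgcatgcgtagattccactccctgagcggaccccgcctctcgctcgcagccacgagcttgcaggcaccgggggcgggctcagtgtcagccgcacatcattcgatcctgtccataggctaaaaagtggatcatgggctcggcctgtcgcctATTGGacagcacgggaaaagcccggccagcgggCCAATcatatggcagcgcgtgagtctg
Ebp: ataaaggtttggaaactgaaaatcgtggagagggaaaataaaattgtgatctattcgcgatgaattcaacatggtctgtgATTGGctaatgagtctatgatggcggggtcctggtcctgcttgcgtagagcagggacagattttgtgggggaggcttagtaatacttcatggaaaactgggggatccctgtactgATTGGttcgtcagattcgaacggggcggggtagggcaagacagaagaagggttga
Fasn: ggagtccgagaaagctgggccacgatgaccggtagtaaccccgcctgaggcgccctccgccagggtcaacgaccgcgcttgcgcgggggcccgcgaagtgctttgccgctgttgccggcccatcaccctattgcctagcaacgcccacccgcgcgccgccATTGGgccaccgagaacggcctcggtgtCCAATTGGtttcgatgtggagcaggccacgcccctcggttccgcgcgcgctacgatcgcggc
Elovl4: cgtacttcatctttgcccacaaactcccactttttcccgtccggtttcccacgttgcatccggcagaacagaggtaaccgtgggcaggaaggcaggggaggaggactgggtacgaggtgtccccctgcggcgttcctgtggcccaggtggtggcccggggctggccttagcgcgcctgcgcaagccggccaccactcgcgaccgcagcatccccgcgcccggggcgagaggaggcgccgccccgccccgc

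The libraries were of like depth, with 13911765 to 15923154 counts assigned to genes. Levels are given as CPM, read counts relative to TMM-normalised library size, and a count of 0 allows up to 3 counts, or 0.185 to 0.213 CPM, counting error only. The 12 bulge markers summed to 27538 and 31895 CPM in Foxp3-DTR C and D, against 33454 and 34457 CPM in WT A and C. Most of each sum came from the keratins Krt5, Krt15 and Krt14. Krt5 alone had 11783 and 12822 CPM in Foxp3-DTR C and D, against 15425 and 14467 CPM in WT A and C. Fgf18 was scarce, with 7.16 and 8.43 CPM in Foxp3-DTR C and D, against 0.634 and 1.91 CPM in WT A and C. Of these 12 markers 0 passed in edgeR or limma-voom. An unadjusted edgeR p under 0.05 was seen for 3 higher and 2 lower markers, where 6.76% of all genes tested were higher and 7.89% lower. DESeq2 called as many markers, beside 3.61% of its genes higher and 3.79% lower. Foxp3 had 0 counts in all 4 libraries of sorted stem cells, so T cell depletion could not be checked in them. The groups also differed in sex: Xist, made from the inactive X, had 1.86 and 0 CPM in Foxp3-DTR C and D, against 861 and 2482 CPM in WT A and C, and the Y-linked Ddx3y, Eif2s3y, Kdm5d and Uty were detected in the Foxp3-DTR libraries and listed at 0 in both WT libraries. The sample titles carry DEP3 for Foxp3-DTR and DEP2 for WT, a code the labels do not explain. Sex, this code and genotype cannot be told apart.

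None of the 38 lipid genes passed the test between Foxp3-DTR and WT. With edgeR's quasi-likelihood test and Benjamini-Hochberg adjustment over all 12920 genes tested, 0 were higher and 0 lower at the 0.05 threshold, where 0.82% of all genes tested were called higher (106 genes) and 0.426% lower (55 genes). At an unadjusted p under 0.05, 1 lipid gene was higher (Ebp) and 3 were lower (Scd2, Fads2 and Plin2), where 6.76% of all genes tested were higher and 7.89% lower by that rule. In DESeq2, 1 was higher (Ebp) and 1 lower (Scd2), beside 3.61% of its genes higher and 3.79% lower. In limma-voom 0 passed in either direction, beside 0.72% of all genes. With no filter on low counts edgeR placed 1 (Scd2) past the threshold, lower, beside 1.61% of all genes. With 2 libraries a group, an exact two-sided permutation test over libraries cannot give a p below 0.333. In bulk RNA, fewer cells of a type and less RNA per cell cannot be told apart.

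What separated the libraries was the spread inside the WT group. WT A was above WT C for 36 of 38 lipid genes (all but Fads1 and Fads2), against 49.5% of all genes tested, and Foxp3-DTR D was above Foxp3-DTR C for 25 of 38, against 49.8%. WT A was the highest of the 4 libraries for 29 of 38, against 32.2% of all genes tested. WT C was the lowest for 23 of 38, against 21.2%. The gap between the Foxp3-DTR libraries passed 2-fold for 4 of 38 lipid genes, against 7.66% of all genes tested. Between the WT libraries it passed 2-fold for 17 of 38, against 10.6%. The median gap, on log2(CPM + 0.5), was 0.15 for Foxp3-DTR D over C and 0.86 for WT A over C, beside -0.0015 and -0.0059 over all genes tested.

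The group difference was small beside that spread. The median log2 fold change of the lipid genes, Foxp3-DTR over WT, was -0.32, beside -0.01 for all genes tested, and 30 of 38 were negative, beside 51.4%. The groups overlapped for 30 of 38. Both Foxp3-DTR libraries lay above both WT libraries for 3 (Ebp, Sc5d and Tm7sf2), against 22.0% of all genes tested. They lay below them for 5 (Scd2, Elovl5, Fads2, Dgat1 and Plin2), against 23.7%; 45.7% of all genes tested did not overlap. The difference of group means exceeded the replicate gap of both groups for 5 of 38 (Ebp, Scd2, Elovl5, Fads2 and Dgat1), against 33.7% of all genes tested. Leaving out WT A left 8 of 38 negative with a median of 0.29, and leaving out WT C left 33 negative with a median of -0.68, so the median took its sign from which WT library stood for the group.

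**Figure D1:**
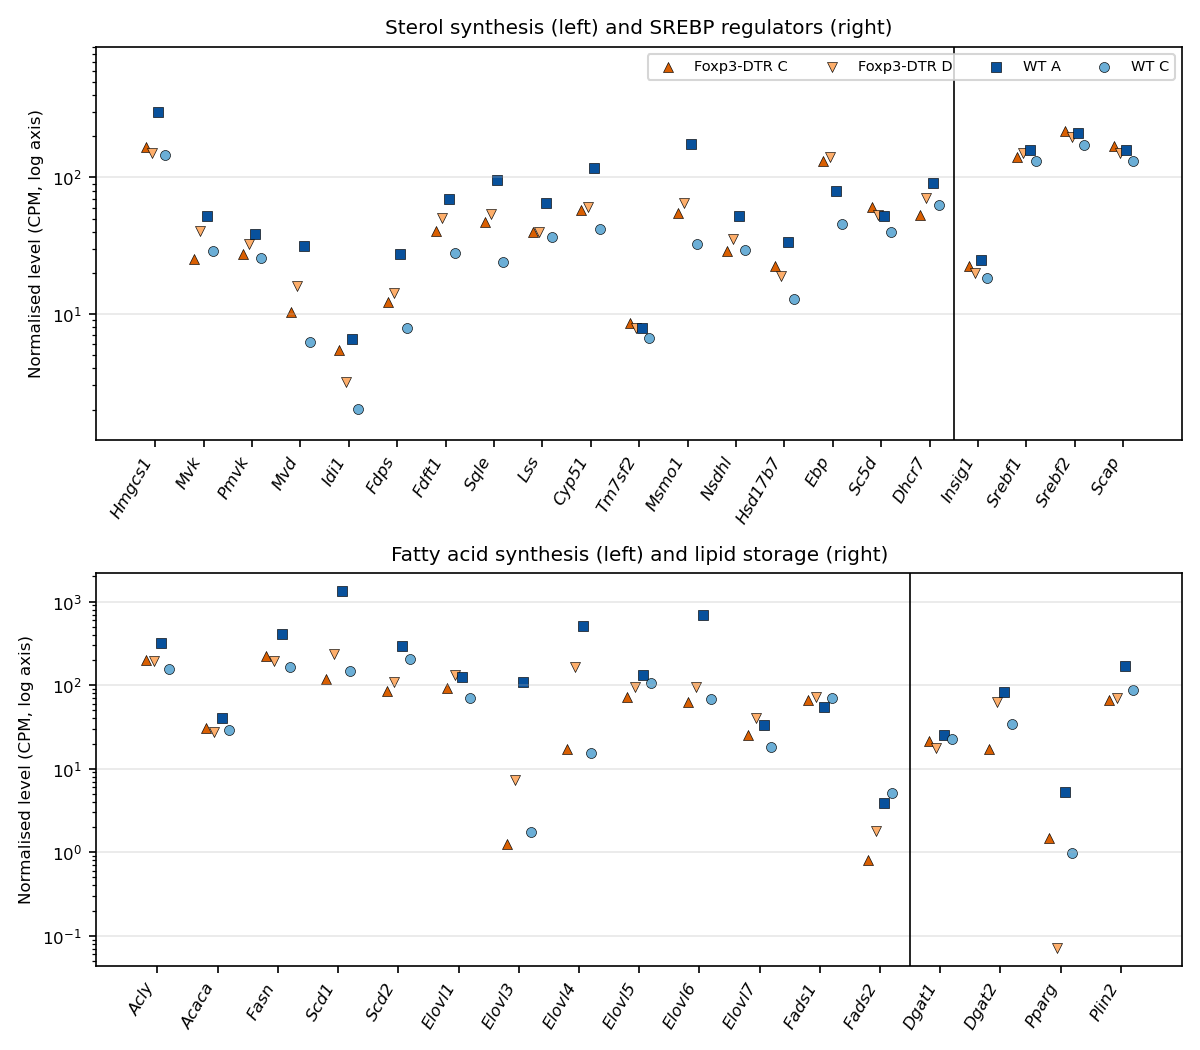
Normalised level (CPM, log axis) of each of the 38 lipid genes in Foxp3-DTR C and D and WT A and C, by subgroup; each point is 1 library. WT A lies highest for 29 genes, Scd1 reaches 1336 CPM in it, and the 4 regulators lie close together.

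The summed level of the sterol synthesis enzymes was highest in WT A and lowest in WT C, with both Foxp3-DTR libraries between them, though single enzymes departed from that order. WT A was above WT C for 17 of 17, and WT C was the lowest library for 14 of 17. Summed over the 17, the level was 791 and 853 CPM in Foxp3-DTR C and D, against 1297 and 578 CPM in WT A and C. The sums of the Foxp3-DTR libraries differed 1.08-fold and those of the WT libraries 2.25-fold, and the log2 ratio of the group means was -0.19. Of the 17 enzymes 0 passed edgeR's threshold, and their median log2 fold change was -0.32.

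Hmgcs1, the HMG-CoA synthase at the entry to the mevalonate route, had 166 and 149.6 CPM in Foxp3-DTR C and D, against 299.98 and 146 CPM in WT A and C. The log2 fold change came to -0.50 ± 0.34 (SE; edgeR adjusted p = 0.599). WT C stood with the Foxp3-DTR libraries and only WT A was apart. The next enzymes are the mevalonate kinases and the decarboxylase. Mvk had 25.1 and 40.3 CPM in Foxp3-DTR C and D, against 52.6 and 29.1 CPM in WT A and C, and Pmvk had 27.3 and 32.7 CPM, against 38.8 and 25.9 CPM. Mvd, the decarboxylase, had 10.3 and 16.1 CPM in Foxp3-DTR C and D, against 31.3 and 6.21 CPM in WT A and C. The WT libraries held both the highest and the lowest value of Mvd, 5.03-fold apart.

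Idi1 and Fdps build the isoprenoid chain and Fdft1 condenses it to squalene. Idi1 was the least abundant sterol enzyme, with 5.44 and 3.19 CPM in Foxp3-DTR C and D, against 6.62 and 2.03 CPM in WT A and C. Fdps had 12.3 and 14.3 CPM in the Foxp3-DTR libraries, against 27.5 and 7.87 CPM in the WT libraries. Fdft1 had 40.2 and 50.5 CPM, against 69.3 and 27.7 CPM. For all 3 genes both Foxp3-DTR values lay between the WT values. All 3 have near-identical copies elsewhere in the genome, so some of their reads could be misplaced or left out as not unique.

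Squalene epoxidase and lanosterol synthase close the sterol ring. Sqle averaged 50.2 ± 4.77 CPM in Foxp3-DTR libraries and 59.9 ± 51.0 CPM in WT libraries (SD, n = 2 each): its single values were 46.8 and 53.6 CPM in Foxp3-DTR C and D, against 96.0 and 23.9 CPM in WT A and C. Its group means were close while its WT libraries differed 4.02-fold. Lss had the same level, 39.7 CPM, in both Foxp3-DTR libraries, against 64.5 and 36.8 CPM in WT A and C. The demethylases that follow had the same order of libraries. Cyp51 had 58.1 and 60.5 CPM in Foxp3-DTR C and D, against 117 and 41.8 CPM in WT A and C. Msmo1, the methylsterol oxidase, had the widest WT gap of the sterol enzymes, with 55.0 and 64.7 CPM in Foxp3-DTR C and D, against 177 and 32.4 CPM in WT A and C. The WT libraries differed 5.46-fold in Msmo1 and the Foxp3-DTR libraries 1.18-fold, and its log2 fold change was -0.81 ± 0.89 (SE; edgeR adjusted p = 0.784). Without WT C the edgeR adjusted p of Msmo1 was 0.0234 at a log2 fold change of -1.56, and without WT A the log2 fold change was 0.90.

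Of the later enzymes, Nsdhl and Hsd17b7, which also act in removing methyl groups from the sterol, kept both Foxp3-DTR libraries within the WT range or near its lower end. Nsdhl had 28.7 and 35.5 CPM in Foxp3-DTR C and D, against 51.9 and 29.4 CPM in WT A and C, and Hsd17b7 had 22.6 and 19.1 CPM, against 33.9 and 12.9 CPM. Dhcr7, the last reductase, had 53.1 and 70.3 CPM, against 91.5 and 63.3 CPM, with a log2 fold change of -0.33 ± 0.25 (SE; edgeR adjusted p = 0.649). These 3 genes overlapped between the groups.

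Ebp, the sterol isomerase, was 1 of 3 sterol enzymes with a positive log2 fold change, beside Sc5d and Tm7sf2, and had the largest of the 17. It had 131 and 142 CPM in Foxp3-DTR C and D, against 79.6 and 45.5 CPM in WT A and C. Both Foxp3-DTR libraries were above both WT libraries, and the means were 137 ± 7.51 CPM in Foxp3-DTR and 62.5 ± 24.1 CPM in WT (SD, n = 2 each). The log2 fold change was 1.13 ± 0.28 (SE), larger than either replicate gap, but the edgeR adjusted p was 0.118. It passed the threshold in DESeq2 (adjusted p = 0.00637) and without WT A in edgeR (adjusted p = 0.0189, log2 fold change 1.5997), and over all alternatives the adjusted p reached 0.286. Ebp lies on the X chromosome (mm10 X, 8185329 to 8193512, minus strand), and the groups differ in sex as given above, so sex and genotype cannot be told apart for it. Nsdhl also lies on the X chromosome (72918557 to 72958514), and its log2 fold change had the other sign, at -0.34 ± 0.32 (SE; edgeR adjusted p = 0.714). Sc5d, the lathosterol desaturase, had 61.0 and 52.7 CPM in Foxp3-DTR C and D, against 52.5 and 40.1 CPM in WT A and C. Its groups did not overlap by a narrow margin, and its log2 fold change was 0.30 ± 0.22 (SE; edgeR adjusted p = 0.633). Tm7sf2, a sterol reductase, had 8.62 and 7.94 CPM in the Foxp3-DTR libraries, against 7.88 and 6.64 CPM in the WT libraries, and shares exon sequence with its neighbour Vps51.

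**Figure D2:**
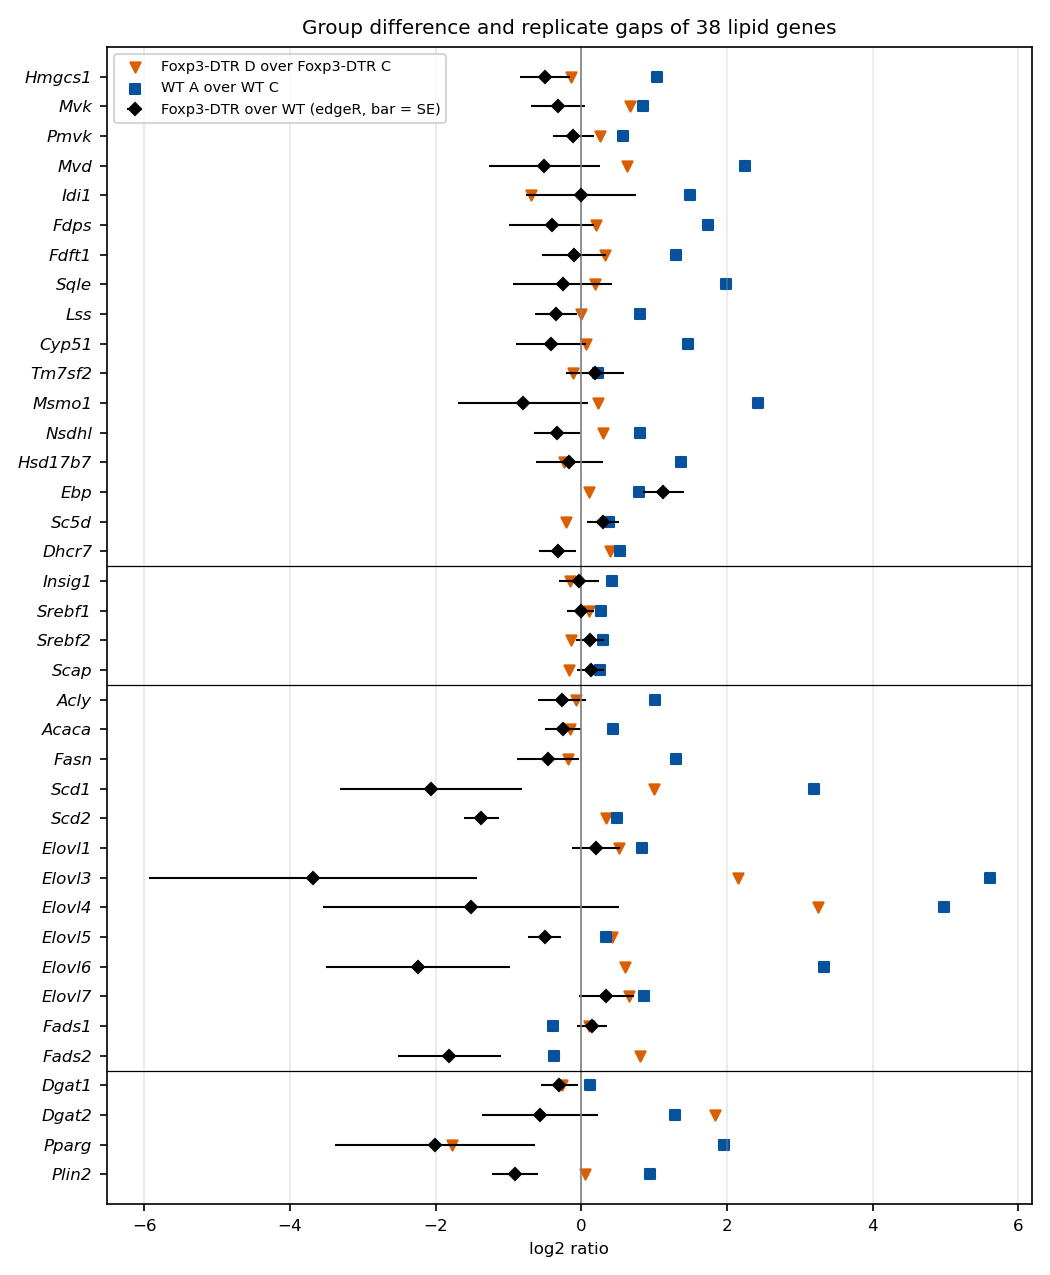
Log2 fold change of Foxp3-DTR over WT from edgeR (diamonds, bars = SE) beside the log2(CPM + 0.5) gap of Foxp3-DTR D over C and of WT A over C, for each of the 38 lipid genes in order of role. Most squares (WT gap) lie further from 0 than the diamonds; Ebp and Scd2 are among the exceptions.

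The regulators differed little between libraries. Srebf2, whose product drives mainly sterol genes, had 219 and 198 CPM in Foxp3-DTR C and D, against 212 and 172 CPM in WT A and C. Srebf1, whose product drives mainly fatty acid genes, had 140.2 and 151 CPM, against 159.9 and 132 CPM. Their log2 fold changes were 0.12 ± 0.19 and -0.01 ± 0.18 (SE; edgeR adjusted p = 0.849 and 0.991). Scap, the escort protein, had 169 and 149.9 CPM in Foxp3-DTR C and D, against 159 and 133 CPM in WT A and C (log2 fold change 0.13 ± 0.19, edgeR adjusted p = 0.836). Insig1, the retention protein and itself an SREBP target, had 22.3 and 19.98 CPM, against 24.8 and 18.5 CPM (log2 fold change -0.03 ± 0.27, edgeR adjusted p = 0.978). Each of the 4 was above WT C in WT A, as the enzymes were, but none of these gaps passed 2-fold in either group. The summed level of the regulators was 550.3 and 519 CPM in Foxp3-DTR C and D, against 556 and 455 CPM in WT A and C. These are transcript levels, and SREBP cleavage was not measured.

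Of the 4 subgroups, fatty acid synthesis had the widest difference in summed level between the WT libraries. The 13 genes summed to 999 and 1373 CPM in Foxp3-DTR C and D, against 4047 and 1061 CPM in WT A and C, a 1.38-fold difference within Foxp3-DTR and a 3.82-fold difference within WT. WT A was above WT C for 11 of 13, and Scd1 alone made up 33.0% of the WT A sum. Of the 13 genes 0 passed edgeR's threshold, 10 had a negative log2 fold change, and the median was -0.50.

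The enzymes that build palmitate differed about as much between the WT libraries as the sterol enzymes did. Acly, which makes cytosolic acetyl-CoA from citrate, had 203 and 193 CPM in Foxp3-DTR C and D, against 318 and 157 CPM in WT A and C. Acaca, acetyl-CoA carboxylase, had 30.8 and 27.6 CPM, against 40.1 and 29.4 CPM. Fasn, fatty acid synthase, had 223 and 196 CPM in Foxp3-DTR C and D, against 409.7 and 165 CPM in WT A and C, with a log2 fold change of -0.45 ± 0.43 (SE; edgeR adjusted p = 0.723). For Acly and Fasn, WT A was the highest and WT C the lowest library.

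The stearoyl-CoA desaturases differed in pattern. Scd1 and Scd2 both add the first double bond to saturated fatty acids, Scd1 being known for its expression in sebaceous gland and Scd2 for wider expression. Scd1 had 119 and 237 CPM in Foxp3-DTR C and D, against 1336 and 146 CPM in WT A and C. WT A was 9.15-fold above WT C, and WT C lay between the Foxp3-DTR libraries. Its log2 fold change was -2.06 ± 1.25 (SE; edgeR adjusted p = 0.595). Scd2 had 85.3 and 108 CPM in Foxp3-DTR C and D, against 293 and 208 CPM in WT A and C. Here both WT libraries were above both Foxp3-DTR libraries, with means of 96.7 ± 16.1 CPM in Foxp3-DTR and 251 ± 59.8 CPM in WT (SD, n = 2 each). The log2 fold change was -1.37 ± 0.24 (SE), larger than the replicate gaps of 0.34 in Foxp3-DTR and 0.49 in WT, and the edgeR adjusted p was 0.0543, the smallest of the 38 genes and just above the threshold. Its adjusted p ranged up to 0.247, without Foxp3-DTR C, and was under the threshold in DESeq2 (1.6e-05), with no filter on low counts (0.0112), without Foxp3-DTR D (0.0459) and without WT C (0.0245). Scd2 was negative under every alternative run. The genes lie near each other (mm10 chromosome 19, Scd2 44293674 to 44306864 plus, Scd1 44394455 to 44407879 minus). They share a 623-base stretch that is 95.5% identical, and reads from that stretch could be misplaced or left out as not unique.

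Fads1 and Fads2, the desaturases of polyunsaturated fatty acids, were the 2 lipid genes higher in WT C than in WT A. Fads2 was scarce, with 0.796 and 1.77 CPM in Foxp3-DTR C and D (12 and 25 counts), against 3.87 and 5.17 CPM in WT A and C (55 and 84 counts). Its groups did not overlap, and its log2 fold change was -1.81 ± 0.71 (SE; edgeR adjusted p = 0.303). Fads1 had 66.3 and 71.7 CPM in the Foxp3-DTR libraries, against 54.3 and 70.9 CPM in the WT libraries, which overlap.

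Elongases also varied in which libraries were high. Elovl6, which extends palmitate to stearate, had 63.1 and 96.2 CPM in Foxp3-DTR C and D, against 688 and 67.7 CPM in WT A and C, the same order of size as Scd1. Its log2 fold change was -2.25 ± 1.26 (SE; edgeR adjusted p = 0.567). WT A alone was apart: without it the log2 fold change was 0.25, and without WT C it was -3.11 with an edgeR adjusted p of 0.0130. Elovl3, known for very long chain lipids of sebum, had 1.26 and 7.30 CPM in Foxp3-DTR C and D (19 and 103 counts), against 108 and 1.72 CPM in WT A and C (1535 and 28 counts). Elovl4, which makes the ultra long chains of barrier ceramides, had 17.0 and 166 CPM in Foxp3-DTR C and D, against 505 and 15.6 CPM in WT A and C. Both genes were high in WT A and, to a lesser degree, in Foxp3-DTR D, and low in the other library of each group. The gaps of Elovl3 were 5.79-fold in Foxp3-DTR and 62.7-fold in WT, and those of Elovl4 were 9.72-fold and 32.5-fold. Their log2 fold changes were -3.68 ± 2.25 and -1.51 ± 2.03 (SE; edgeR adjusted p = 0.597 and 0.830). Without WT A the log2 fold change of Elovl4 was 2.57 and that of Elovl3 was 1.32.

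Elovl5, which extends polyunsaturated chains, had 71.8 and 96.0 CPM in Foxp3-DTR C and D, against 133 and 105 CPM in WT A and C. Its groups did not overlap, the difference exceeded both replicate gaps, and the log2 fold change was -0.50 ± 0.22 (SE; edgeR adjusted p = 0.380). Elovl1 had 92.3 and 133 CPM in the Foxp3-DTR libraries, against 125 and 70.4 CPM in the WT libraries, and Elovl7 had 25.3 and 40.2 CPM, against 33.5 and 18.1 CPM. Both genes overlapped between the groups, and in both of them Foxp3-DTR D was the highest library.

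**Figure D3:**
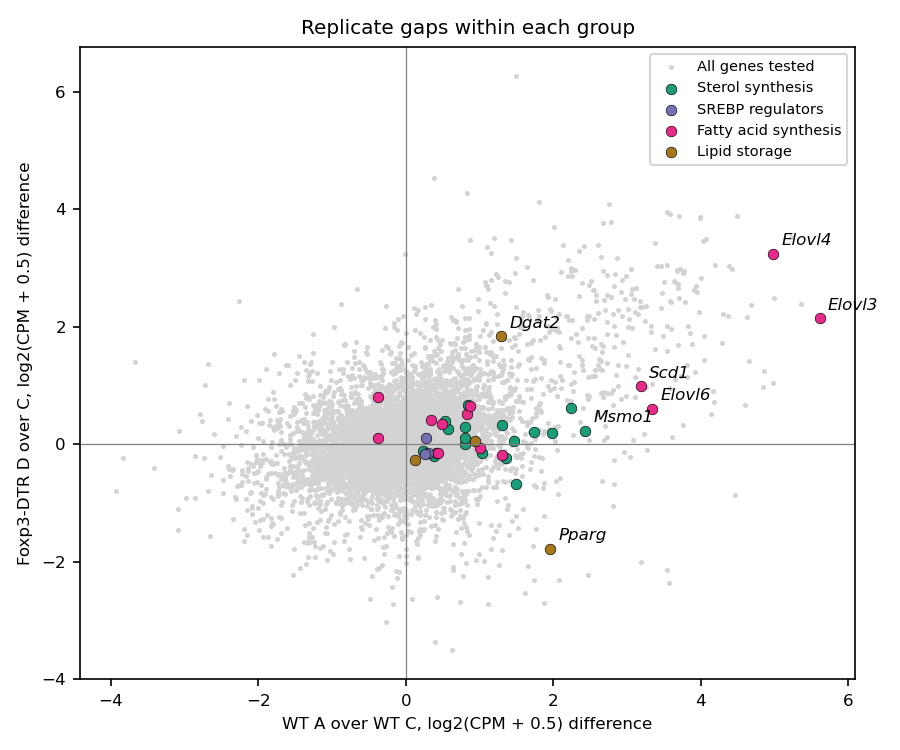
Replicate gap in log2(CPM + 0.5) within WT (A over C, horizontal) and within Foxp3-DTR (D over C, vertical); grey points are all 12920 genes tested and coloured points the 38 lipid genes by subgroup. All but 2 lipid genes lie right of 0, and Elovl3, Elovl4, Scd1 and Elovl6 reach furthest right.

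The storage genes were all lower in Foxp3-DTR by the fitted log2 fold change, with a median of -0.74 and none past edgeR's threshold. Plin2, the coat protein of lipid droplets, had 67.2 and 69.8 CPM in Foxp3-DTR C and D, against 170.2 and 88.2 CPM in WT A and C. Both WT libraries were above both Foxp3-DTR libraries, but the difference did not exceed the WT gap. Its log2 fold change was -0.92 ± 0.32 (SE; edgeR adjusted p = 0.245), and without WT C the edgeR adjusted p was 0.0281. Dgat1, an enzyme of the last step of triglyceride synthesis, had 21.2 and 17.6 CPM in Foxp3-DTR C and D, against 24.99 and 22.9 CPM in WT A and C (log2 fold change -0.30 ± 0.26, edgeR adjusted p = 0.679). Its groups did not overlap, and the difference was small. Dgat2, which catalyses the same step, had 17.0 and 62.4 CPM in Foxp3-DTR C and D, against 83.6 and 33.8 CPM in WT A and C (log2 fold change -0.57 ± 0.80, edgeR adjusted p = 0.835). Foxp3-DTR D and WT A were its high libraries, as for Elovl4. Pparg, the nuclear receptor of adipocyte and sebocyte differentiation, had 22 and 1 counts in Foxp3-DTR C and D, against 75 and 16 counts in WT A and C, or 1.46 and 0.0709 CPM, against 5.28 and 0.984 CPM. At these counts its log2 fold change was -2.01 ± 1.37 (SE; edgeR adjusted p = 0.597). The 4 genes summed to 107 and 149.8 CPM in Foxp3-DTR C and D, against 284 and 146 CPM in WT A and C, and Plin2 made up 59.9% of the WT A sum.

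Between genes, levels were compared per kb of the longest coding transcript (CPM per kb, mean of the 4 libraries). Scd1 was highest at 95.1 CPM per kb, with WT A far above the other libraries: it had 24.6 and 49.0 CPM per kb in Foxp3-DTR C and D, against 276 and 30.2 CPM per kb in WT A and C. Elovl4 (58.6), Elovl1 (58.1), Ebp (57.1), Hmgcs1 (55.0) and Plin2 (52.4 CPM per kb) followed and did not differ beyond their spread over libraries. In the Foxp3-DTR libraries Ebp was the highest of the 38, at 75.4 and 81.5 CPM per kb. Idi1, Fads2 and Pparg were the lowest, at 1.43, 0.922 and 0.918 CPM per kb.

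The other genes of these pathways were counted over lists chosen by function. Of 12 further sterol pathway genes 11 were tested, 0 passed, and the median log2 fold change was -0.66. Of the 11, 9 were higher in WT A than in WT C, against 49.5% of all genes tested. The smallest p belonged to 0610007P14Rik, listed in RefSeq under the synonym Erg28, a sterol synthesis scaffold in yeast, with 35.1 and 48.5 CPM in Foxp3-DTR C and D, against 77.7 and 54.7 CPM in WT A and C (log2 fold change -0.66 ± 0.26, edgeR adjusted p = 0.315). Of 17 further fatty acid synthesis genes 15 were tested, 0 passed, the median was -0.55, and 13 were higher in WT A than in WT C. Mid1ip1, a regulator of acetyl-CoA carboxylase, had the smallest p of these (log2 fold change -1.23 ± 0.51, edgeR adjusted p = 0.345). Of 22 further storage and lipolysis genes 17 were tested, 0 passed, the median was -0.18, and 14 were higher in WT A than in WT C. G0s2, an inhibitor of triglyceride lipase, had the smallest p (log2 fold change -2.44 ± 0.85, edgeR adjusted p = 0.241). At an unadjusted p under 0.05 these 3 lists held 0, 0 and 1 higher and 1, 0 and 1 lower, and DESeq2 and limma-voom called 0 in each.

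The lists of genes that export, take up or activate lipids held a single call. Of 8 genes of sterol export and LXR response all 8 were tested, 0 passed edgeR, DESeq2 or limma-voom, 0 had an unadjusted p under 0.05, and 4 of 8 were higher in WT A than in WT C. Abcg1, a sterol exporter, had the smallest p (log2 fold change 0.97 ± 0.58, edgeR adjusted p = 0.536). Of 13 genes of fatty acid uptake and activation 11 were tested and 1 passed, with 0 lower, and 9 of 11 were higher in WT A than in WT C. That gene was Slc27a3, an acyl-CoA synthetase of the fatty acid transport family, with 328 and 384 CPM in Foxp3-DTR C and D, against 91.4 and 78.3 CPM in WT A and C. It rose in Foxp3-DTR (log2 fold change 2.07 ± 0.20, SE; edgeR adjusted p = 0.0108). Its replicates were close and its groups far apart, and it passed under each alternative run, with edgeR or limma-voom adjusted p up to 0.0185. Of 17 genes of epidermal ceramide synthesis 16 were tested and 0 passed edgeR or limma-voom; 1 was higher at an unadjusted p under 0.05 and in DESeq2, and 13 of 16 were higher in WT A than in WT C. Degs1, the dihydroceramide desaturase, had 408 and 369 CPM in Foxp3-DTR C and D, against 227 and 208 CPM in WT A and C (edgeR adjusted p = 0.0823).

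Markers of some other skin cells, though not all, were mostly higher in WT A than in WT C, as the lipid genes were. Of the sebaceous gland markers tested 14 of 15 were, against 49.5% of all genes tested. Of the fibroblast markers 0 of 3 were, and of the bulge markers 3 of 12. Of 18 listed sebaceous gland markers, 4 are among the lipid genes (Elovl3, Scd1, Pparg and Fasn). Of the 15 tested, 13 were highest in WT A, these 4 among them, against 32.2% of all genes tested. Without those 4, the list summed to 233 and 335 CPM in Foxp3-DTR C and D, against 1085 and 180.4 CPM in WT A and C. That sum still holds Soat1, Cidea and Acsbg1, which were also counted in the further lists above. edgeR's test called 0 of the 15 (0 higher and 1 lower at an unadjusted p under 0.05, Prdm1, with log2 fold change -0.91 ± 0.24 and edgeR adjusted p = 0.128); DESeq2 called 0 higher and 1 lower and limma-voom 0. Fa2h, the fatty acid 2-hydroxylase, had 1.46 and 22.2 CPM in Foxp3-DTR C and D, against 240.1 and 5.97 CPM in WT A and C, and Soat1, the cholesterol esterifying enzyme, had 6.70 and 8.57 CPM, against 101 and 7.01 CPM; both were named after their values were seen. Awat1, a wax synthase of the gland, had 0 and 71 counts in Foxp3-DTR C and D, against 251 and 10 counts in WT A and C. Awat2 had 38 and 33 counts in Foxp3-DTR C and D, against 123 and 36 counts in WT A and C. Mc5r had 3 and 4 counts, against 14 and 3 counts, and was not tested. Awat2 and Mc5r were also named after their values were seen. Plin5 had no counts in any library, and Dgat2l6 had 4 counts, in Foxp3-DTR D alone. The part of these markers in the lipid gene values was not tested.

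Suprabasal epidermis markers were high in WT A and Foxp3-DTR D, the pair of libraries with high Elovl4 and Dgat2. Of 13 listed, 12 were tested. All 12 were higher in Foxp3-DTR D than C, against 49.8% of all genes tested, and in WT A than C, against 49.5%. They summed to 1589 and 7730 CPM in Foxp3-DTR C and D, against 9894 and 2168 CPM in WT A and C, and none was at 0. Calml3, a calmodulin-like protein of keratinocytes, fell in Foxp3-DTR (log2 fold change -1.57 ± 0.25, edgeR adjusted p = 0.0486), a call lost without Foxp3-DTR C (adjusted p = 0.265), without WT A (0.0523), with upper-quartile factors (0.0542) and in limma-voom (0.0517). DESeq2 called it too. Markers of infundibulum and upper follicle summed to 1508 and 1507 CPM in Foxp3-DTR C and D, against 5669 and 3173 CPM in WT A and C. That sum was mostly Krt17, a keratin, with 1024 and 915 CPM in Foxp3-DTR C and D, against 4236 and 2202 CPM in WT A and C. An unadjusted edgeR p under 0.05 was seen for 1 higher and 2 lower of the 8 tested, beside 6.76% and 7.89% of all genes tested. DESeq2 called as many, beside 3.61% and 3.79% of its genes, and limma-voom called 0 higher and 1 lower. Gata6, a transcription factor, went the other way, with 14.3 and 8.01 CPM in Foxp3-DTR C and D, against 4.22 and 2.52 CPM in WT A and C (edgeR adjusted p = 0.177); Krt17 and Gata6 were named after their values were seen. The single edgeR call was Sostdc1, an inhibitor of BMP and Wnt signals, which fell in Foxp3-DTR (log2 fold change -2.50 ± 0.36, edgeR adjusted p = 0.0441), a call lost without WT A (0.193) and without WT C (0.103). The part of these markers in the lipid gene values was not tested.

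**Figure D4:**
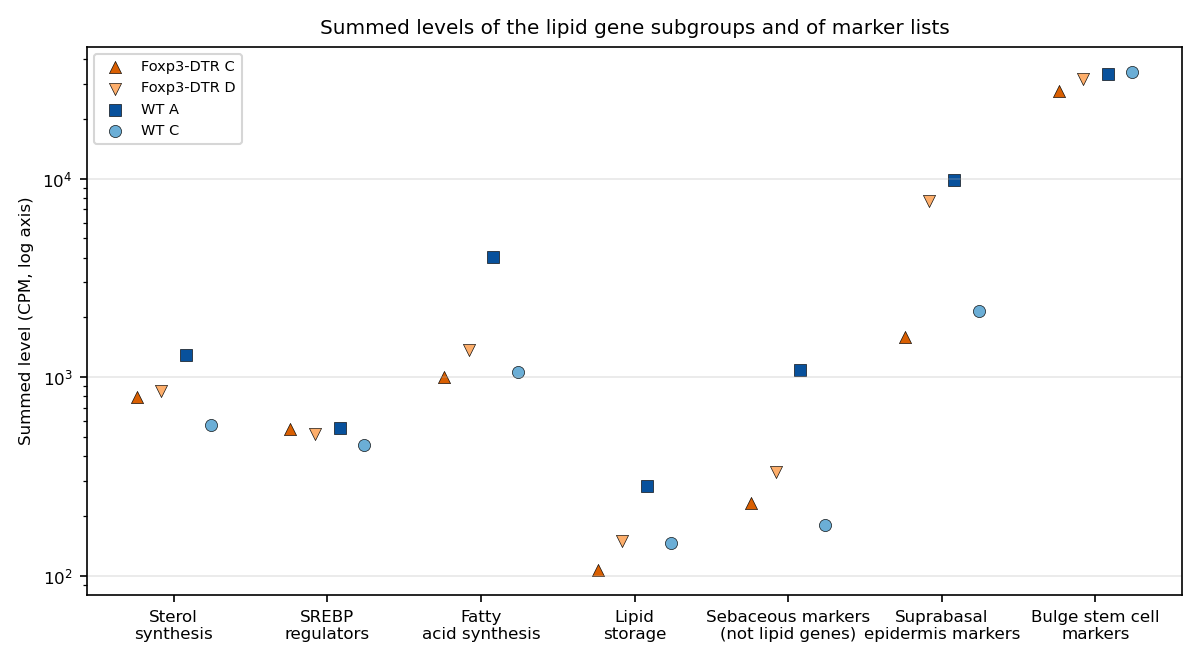
Summed level (CPM, log axis) of the 4 lipid gene subgroups and of 3 marker lists in Foxp3-DTR C and D and WT A and C. Each point is 1 library, and the sebaceous list is without Elovl3, Scd1, Pparg and Fasn. WT A stands above the rest for fatty acid synthesis (4047 CPM) and sebaceous markers (1085 CPM). The bulge marker sums, which are mostly keratins, lie close together.

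The 8 listed adipocyte markers summed to 1.72 and 4.32 CPM in Foxp3-DTR C and D, against 27.2 and 2.03 CPM in WT A and C. Most of the sum in each library, WT A included, came from Lpl, the lipoprotein lipase. The other 7 genes were under 2 CPM in all libraries, and Adipoq, Fabp4 and Retn had no counts in any. Lpl was the single gene of the 8 with enough counts to test, and was not called (log2 fold change -2.37 ± 1.30, edgeR adjusted p = 0.522). T cell markers summed to 2.12 and 2.55 CPM in Foxp3-DTR C and D, against 12.9 and 3.01 CPM in WT A and C, with Cd2 and Foxp3 at 0. Myeloid and Langerhans markers summed to 2.98 and 3.83 CPM, against 7.32 and 2.21 CPM. Endothelial markers reached at most 1.66 CPM in any library, with 4 of 5 at 0 in all.

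The direction of most lipid genes depended on WT A. Leaving out 1 library at a time changed the sign of the log2 fold change of 27 of 38 genes, 24 of them when WT A was the library left out. The 11 genes that kept their sign in every such fit were Tm7sf2, Ebp, Sc5d, Dhcr7, Scap, Scd2, Elovl5, Fads2, Dgat1, Pparg and Plin2. Without WT A, edgeR called 1 lipid gene higher (Ebp), where it called 0.993% of all genes tested higher. Without WT C it called 4 lower (Msmo1, Scd2, Elovl6 and Plin2), where it called 1.2% of all genes tested lower. Without Foxp3-DTR D it called 1 lower (Scd2), beside 1.64% of all genes tested, and without Foxp3-DTR C it called 0 of the 38, beside 0.602%. In these fits the lone library of a group was assumed to vary like the other group.

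**Figure D5:**
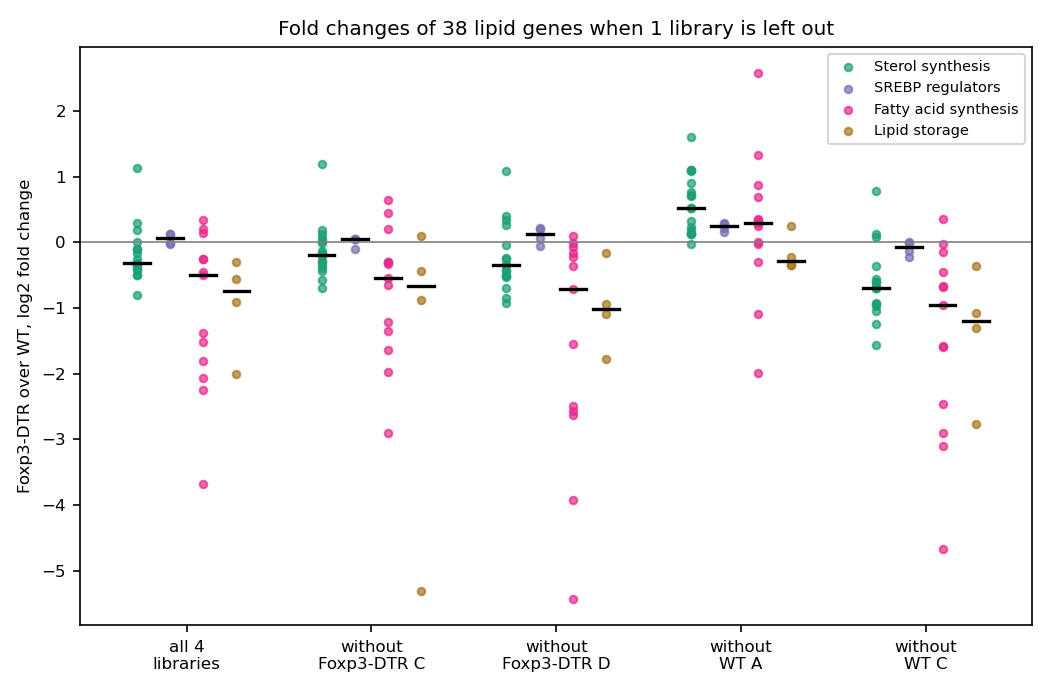
Log2 fold change, Foxp3-DTR over WT, of the 38 lipid genes (points, by subgroup) with all 4 libraries and with each library left out in turn; bars are subgroup medians. Without WT A the median of the sterol enzymes is 0.52 and without WT C it is -0.69.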

How the data were processed

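The deposited table holds raw read counts by gene symbol for the 4 libraries. Reads were processed with HTSeq 0.6.1, SAMtools 0.1.19.0, TopHat2 2.0.12, CASAVA 1.8.2 and Bowtie2 2.1.0.0 on build mm10, per the submitters' processing notes; a stranded mRNA kit was used, per the labels' protocols. No source used here gives the annotation or the counter's strand setting, so reads of overlapping or antisense genes (13 of the 38 genes overlap the exons of another gene) cannot be assigned to either. Near-identical stretches of at least 300 bases and 95% identity were found for 7 of the 38 (Hmgcs1, Idi1, Fdps, Fdft1, Acaca, Scd2 and Elovl6), whose counts are uncertain to that degree. The stretch matching Scd2 lies in Scd1, so the counts of Scd1 are uncertain too. The match of Hmgcs1 is Gm48342, an antisense gene that overlaps it on the opposite strand. In the table, 5 special rows that name no gene were left out. They held 63.9% and 67.8% of all counts in Foxp3-DTR C and D, against 70.1% and 62.0% in WT A and C. Most were alignments that were not unique. Those made up 53.4% and 58.3% in Foxp3-DTR C and D, against 61.3% and 51.8% in WT A and C. WT A and Foxp3-DTR D thus had the larger share in their groups. The part of this in the lipid gene values was not tested. A further 27 names look like calendar dates and were not used.

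Foxp3-DTR was set against WT in R 4.3.3 with edgeR 4.0.16 (TMM, filterByExpr, robust quasi-likelihood fit, no covariate), with Benjamini-Hochberg adjustment over all 12920 genes tested and a threshold of 0.05. The common biological coefficient of variation was 0.309. The code was checked on simulated counts of 12688 genes. There edgeR recovered 13 of 50 genes changed 2-fold, 41 of 50 changed 4-fold, 46 of 50 changed 8-fold and 48 of 50 changed 16-fold. It also made 22 false calls, a larger share of its calls than the 0.05 threshold sets. Changes were given only to genes above a low level, so the check does not cover scarce genes such as Pparg and Fads2. Replicate gaps used log2(CPM + 0.5). Alternatives were RLE and upper-quartile factors, no filter, DESeq2 1.42.0, limma-voom (limma 3.58.1) and leaving out each library. Gene positions and lengths came from GENCODE M21 (GRCm38, which is mm10). The p-values reflect the spread between libraries only.

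The genes and lists were chosen with earlier results of these data known. Full values were given by rule to the members past the threshold, the 4 with the smallest p and the 2 with the highest level in each subgroup, and the 5 with the widest gap in each group. From each other list the rule took its calls (at most 3), or else its tested gene with the smallest p; the other lipid genes were given by library without a fold change.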

Additional observations from a re-analysis of the deposited data

How the results depend on the processing

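No paired analysis was possible because the groups share only the replicate letter C, which the labels tie to no shared animal or day. With 2 libraries a group the spread is poorly known, and counts limit mainly Pparg, Fads2 and Elovl3. Over all genes 106 were called higher and 55 lower; the counts were 277 and 252 with no filter on low counts, 489 and 514 in DESeq2, 70 and 23 in limma-voom, and 66 to 203 and 14 to 220 when 1 library was left out (lowest without Foxp3-DTR C, highest without Foxp3-DTR D). Of the 38 lipid genes DESeq2 called 1 higher and 1 lower, no filter gave 1 lower, and leaving out 1 library gave 0 to 1 higher and 0 to 4 lower; the cause was not tested. Left-out libraries moved the median log2 fold change of the lipid genes over -0.68 to 0.29, of the sterol enzymes over -0.69 to 0.52, of the regulators over -0.076 to 0.24, of the fatty acid genes over -0.96 to 0.30 and of the storage genes over -1.19 to -0.29. The log2 ratio of summed levels ranged over -1.21 to 0.27 for all 38, -0.65 to 0.52 for sterol enzymes, -0.052 to 0.25 for regulators, -1.77 to 0.18 for fatty acid genes and -1.14 to -0.17 for storage genes. With fewer libraries, 13 to 34 genes did not overlap (8 with all 4 libraries) and 5 to 29 exceeded the replicate gaps (5 with all 4), since a group of 1 library has no spread of its own. Of single genes near 0, Idi1 turned to 0.0037 with RLE factors, 0.016 with no filter, 0.0043 in DESeq2 and 0.24 in limma-voom; Srebf1 to 0.0027 with RLE factors, 0.011 with no filter and 0.0034 in DESeq2; and in limma-voom Fdft1 to 0.058, Sqle to 0.095 and Hsd17b7 to 0.029. The ranges of log2 fold change over left-out libraries of the 27 genes whose sign changed were Hmgcs1 -0.92 to 0.12, Mvk -0.69 to 0.18, Pmvk -0.37 to 0.23, Mvd -1.24 to 1.10, Idi1 -0.61 to 1.10, Fdps -1.04 to 0.77, Fdft1 -0.61 to 0.72, Sqle -0.93 to 1.09, Lss -0.69 to 0.12, Cyp51 -0.97 to 0.52, Msmo1 -1.56 to 0.90, Nsdhl -0.69 to 0.14, Hsd17b7 -0.70 to 0.71, Insig1 -0.22 to 0.21, Srebf1 -0.13 to 0.15, Srebf2 -0.019 to 0.29, Acly -0.68 to 0.34, Acaca -0.45 to 0.0049, Fasn -0.96 to 0.36, Scd1 -2.91 to 0.30, Elovl1 -0.15 to 0.69, Elovl3 -5.42 to 1.32, Elovl4 -3.92 to 2.57, Elovl6 -3.11 to 0.25, Elovl7 -0.028 to 0.87, Fads1 -0.025 to 0.35 and Dgat2 -1.77 to 0.25. The median log2 fold change of all genes moved between -0.07 and 0.01 over the alternatives.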

Other observations

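Inner root sheath and hair shaft markers, the differentiating layers of a growing hair, summed to 225 and 251 CPM in Foxp3-DTR C and D, against 174 and 165 CPM in WT A and C. Gata3, a transcription factor, made up most of each sum. It had 156 and 171 CPM in Foxp3-DTR C and D, against 129 and 93.5 CPM in WT A and C. Of the 7 tested, edgeR and limma-voom called 0. At an unadjusted edgeR p under 0.05, 3 were higher and 1 lower, beside 6.76% and 7.89% of all genes tested. DESeq2 called 2 higher and 1 lower, beside 3.61% and 3.79% of its genes. Krt27, an inner root sheath keratin, had the smallest p, with 8.62 and 4.46 CPM in Foxp3-DTR C and D, against 0.493 and 0.861 CPM in WT A and C (log2 fold change 3.25 ± 0.71, edgeR adjusted p = 0.0846). Other keratins of the list went the other way. Krt28 had 0.0663 and 0.354 CPM in Foxp3-DTR C and D, against 2.60 and 3.63 CPM in WT A and C. Krt25 had 0 counts in both Foxp3-DTR libraries and 7 in each WT library, and was not tested. Of the 7 tested, 5 had a positive and 2 a negative log2 fold change. Lhx2, a transcription factor of hair follicle stem cells, had the smallest p of the bulge markers, with 425 and 439 CPM in Foxp3-DTR C and D, against 789 and 804 CPM in WT A and C (log2 fold change -0.88 ± 0.18, edgeR adjusted p = 0.0778). Bulge markers went both ways: Cd34, a surface protein used to mark the bulge, had 1709 and 1625 CPM in Foxp3-DTR C and D, against 936 and 1216 CPM in WT A and C (edgeR adjusted p = 0.239). Itga6 and Fgf18 were the other markers with an unadjusted p under 0.05 and a higher level in Foxp3-DTR (edgeR adjusted p = 0.172 and 0.128), and Tbx1 the other that was lower (0.0811). Gata3, Krt28, Krt25, Cd34, Itga6, Fgf18 and Tbx1 were named after their values were seen.

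Fibroblast and dermal papilla markers summed to 27.9 and 31.8 CPM in Foxp3-DTR C and D, against 40.0 and 53.4 CPM in WT A and C, with Lum, Dpt and Corin at 0. Col1a1, a collagen of fibroblasts, had 3.05 and 5.74 CPM in Foxp3-DTR C and D, against 15.1 and 16.4 CPM in WT A and C (log2 fold change -1.84 ± 0.43, edgeR adjusted p = 0.0982). Col1a2, another collagen, made up most of each sum (log2 fold change -0.44 ± 0.28, edgeR adjusted p = 0.575). Pdgfra went the other way (log2 fold change 1.21 ± 0.74, edgeR adjusted p = 0.548). Dcn, which was not tested, had 16 and 9 counts in Foxp3-DTR C and D, against 8 and 6 counts in WT A and C. Col1a2, Pdgfra and Dcn were named after their values were seen. Melanocyte markers summed to 117 and 141 CPM, against 96.9 and 141 CPM, and Pmel, a melanosome protein, stood at 6.03 and 8.36 CPM in Foxp3-DTR C and D, against 2.82 and 2.28 CPM in WT A and C (edgeR adjusted p = 0.237). The smallest p of the T cell, myeloid and endothelial lists belonged to Lck (edgeR adjusted p = 0.552), Fcer1g (0.218) and Pecam1 (0.816).

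The genes outside the lipid lists whose log2 level over the 4 libraries was most like that of Scd1 were 4833439L19Rik, Clpp, Ankrd13a, Pfn1 and Pdap1, among 9854 genes with a mean of at least 10 CPM. The lowest Pearson r of these was 0.999, over 4 points. This r compares the shape of the pattern and not its size, and these genes varied far less than Scd1. Ankrd13a had 58.8 and 69.6 CPM in Foxp3-DTR C and D, against 102 and 62.1 CPM in WT A and C. Scd1 had 119 and 237 CPM in Foxp3-DTR C and D, against 1336 and 146 CPM in WT A and C.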
